A study of Mus musculus with 4 samples.

Results

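The 10 genes Clec4f, Vsig4, Cd5l, Marco, Timd4, Adgre1, C1qa, C1qb, C1qc and Cd163, which mark Kupffer cells and other resident macrophages, were followed in RNA-seq data of mouse myeloid cells. They were taken by gene symbol, and each symbol matched 1 of the 24706 genes listed for every library. The series holds 4 libraries of total RNA in 2 groups, with 2 libraries per group. The group labelled wt, called PD-1f/f by the study, carries a floxed Pdcd1, the gene for the inhibitory receptor PD-1. The group labelled cko, called PD-1f/f; LysM-Cre, carries the same floxed gene with a Cre recombinase knocked into Lyz2, which is active in macrophages, monocytes and neutrophils alike. The results of the study describe CD11b+ cells sorted from the liver of pups on postnatal day 3, whereas its methods describe RNA of whole livers on postnatal day 2, from PD-1 knockout and wild-type pups, and name no sort. The labels say only myeloid cells and do not say whether the 2 libraries of a group came from separate animals. The p-values therefore measure the spread between these libraries, which in cko may be technical. In wt it is not technical alone, because the 2 libraries differed in Xist and Ddx3y (values below) and so did not come from the same animal. Libraries are named wt 1, wt 2, cko 1 and cko 2 after their labels.

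Kupffer cells are the macrophages that live in the liver sinusoids. They are seeded by fetal precursors and clear bacteria, aged red cells and dying cells from the blood. Kupffer cells depend on CSF1 receptor signalling and on the transcription factors LXR-alpha and ID3. Clec4f encodes a C-type lectin found almost only on rodent Kupffer cells, Vsig4 a receptor for complement C3 fragments, and Timd4 the phosphatidylserine receptor TIM-4 of embryonically derived resident macrophages. Adgre1 encodes F4/80, the common surface marker of mouse macrophages. Marco, Cd5l and Cd163 encode proteins with scavenger receptor cysteine-rich (SRCR) domains, which are a bacterial scavenger receptor, the secreted survival factor AIM and the receptor for haptoglobin-haemoglobin complexes. C1qa, C1qb and C1qc encode the chains of C1q, the recognition molecule of the classical complement pathway, which macrophages secrete.

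Promoters are shown for the genes whose window holds the core motif of PU.1, the lineage factor of macrophages. RefSeq windows (GRCm38.p6) of the 250 bases before the annotated start were found for 8 of the 10 genes, not for Adgre1 and C1qa. The core GAGGAA, searched on both strands, was found in 5 of those 8 windows, against 23.3% of all 32851 windows of that length. Each is written 5′ to 3′ on the strand of its gene, with the core in capitals, which reads TTCCTC where it lies on the opposite strand. The windows are chrX:96293439-96293688 (minus strand) for Vsig4, chr3:87357631-87357880 (plus) for Cd5l, chr1:120505025-120505274 (minus) for Marco, chr4:136886201-136886450 (minus) for C1qb and chr4:136892915-136893164 (minus) for C1qc.
Vsig4: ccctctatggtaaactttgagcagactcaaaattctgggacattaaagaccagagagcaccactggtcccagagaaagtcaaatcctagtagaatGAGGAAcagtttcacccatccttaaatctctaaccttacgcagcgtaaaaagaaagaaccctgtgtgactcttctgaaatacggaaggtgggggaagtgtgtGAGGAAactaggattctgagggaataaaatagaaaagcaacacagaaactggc
Cd5l: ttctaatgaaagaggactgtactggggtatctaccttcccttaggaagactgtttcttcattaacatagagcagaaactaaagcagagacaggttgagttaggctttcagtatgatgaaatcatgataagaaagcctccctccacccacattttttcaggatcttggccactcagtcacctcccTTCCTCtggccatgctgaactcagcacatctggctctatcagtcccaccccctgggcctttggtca
Marco: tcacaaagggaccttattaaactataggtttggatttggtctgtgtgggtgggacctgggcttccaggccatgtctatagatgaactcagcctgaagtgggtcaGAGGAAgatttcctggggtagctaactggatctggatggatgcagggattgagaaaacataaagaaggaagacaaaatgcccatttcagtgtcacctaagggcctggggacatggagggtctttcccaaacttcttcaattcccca
C1qb: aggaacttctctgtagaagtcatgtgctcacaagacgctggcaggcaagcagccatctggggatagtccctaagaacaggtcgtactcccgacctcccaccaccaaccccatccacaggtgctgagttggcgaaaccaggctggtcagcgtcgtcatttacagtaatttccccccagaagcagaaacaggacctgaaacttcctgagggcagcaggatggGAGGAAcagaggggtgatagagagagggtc
C1qc: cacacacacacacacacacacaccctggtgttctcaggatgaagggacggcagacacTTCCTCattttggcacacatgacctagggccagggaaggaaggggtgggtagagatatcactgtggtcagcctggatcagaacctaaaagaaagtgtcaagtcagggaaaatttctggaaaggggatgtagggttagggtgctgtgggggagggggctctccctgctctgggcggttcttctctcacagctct
The first base of the core lay 30 bases before the start of C1qb, 66 before that of Cd5l, 146 before that of Marco and 193 before that of C1qc, whereas Vsig4 held it at 155 and 53 bases. The MAF site TGCTGAC was found in 1 of the 8 windows, that of Timd4 at 45 bases, against 3.81% of all windows. The C/EBP core TTGCNNAA and the E-box CACGTG were in 0 of the 8 windows, against 9.56% and 6.02% of all windows. No window of these genes held 2 different motifs, so that none overlapped. Such matches describe letters of the reference and were not tested for binding.

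Values were FPKM, reads scaled by exon length and by the reads counted in the library, worked out by the authors from 17691505 to 22212407 counted reads per library. All 10 genes were above 0 in every library. Their FPKM summed to 385 and 263 in wt 1 and wt 2 and to 264 and 447 in cko 1 and cko 2, which were 0.0575% to 0.111% of all FPKM. These sums rested on 12706, 7169, 7327 and 12189 reads in the same order. Neutrophil markers, by contrast, took 23.0% to 32.9% of all FPKM, and Itgam, the gene for CD11b, lay between 48.5 and 54.3 FPKM. In such bulk RNA, fewer macrophages and less RNA per macrophage cannot be told apart. Pdcd1 measured 28.5 and 34.7 FPKM in wt and 17.1 and 21.4 FPKM in cko (log2 fold change -0.69, SE 0.19, limma adjusted p = 0.218), and the values per gene cannot show the floxed exon. Lyz2, the knock-in locus, measured 31306 and 32147 FPKM against 10422 and 8127 FPKM. Library wt 2 was the 1 library with the Y-linked Ddx3y at 24.9 FPKM, which was at most 0.00866 FPKM elsewhere. The X-linked Xist, transcribed in females, was 0.0119 FPKM in wt 2 and 4.91, 6.67 and 7.98 FPKM in wt 1, cko 1 and cko 2. The sexes were thus not balanced between the groups, and the wt libraries came from different animals.

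None of these macrophage genes was called higher or lower in cko. Groups were compared with limma on log2(FPKM + 1) for genes whose mean FPKM was 1 or more, which kept 9 of the 10 genes (all but Cd163) among 10779. At the study's stricter threshold, an adjusted p (Benjamini-Hochberg) under 0.05 and a log2 fold change of 1 or more, limma called 0 of the 9 genes and 0% of all genes tested. At its other threshold, a log2 fold change above 1 with an unadjusted p under 0.01, limma again called 0 of the 9, against 1.88% of all genes tested called higher and 0.408% called lower. At an unadjusted p under 0.05 with no minimum fold, C1qc was the 1 gene of the 9 that passed, higher in cko, against 11.4% of all genes passing higher and 4.95% passing lower. With median-of-ratios scaling between libraries 0 of the 9 passed that unadjusted test, beside 1677 of all 10779 genes. With voom on reads worked out from the FPKM, which held Cd163 but not Adgre1, 0 of 9 passed 0.05 either adjusted or unadjusted. The unadjusted 0.05 was passed by 1884 of the 12533 genes in that fit. In the fit on log2(FPKM + 1), 5 of the 9 were higher and 4 lower, with a median log2 fold change of 0.08 beside 0.09 for all genes tested. The split was 4 higher and 5 lower with median-of-ratios scaling, which brought the median of all genes to -0.01, and 7 higher and 2 lower with erythroid and hepatocyte markers removed and library totals made equal, which brought it to 0.27. The smallest two-sided p that an exact permutation of 2 libraries against 2 allows is 0.333.

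**Figure D1:**
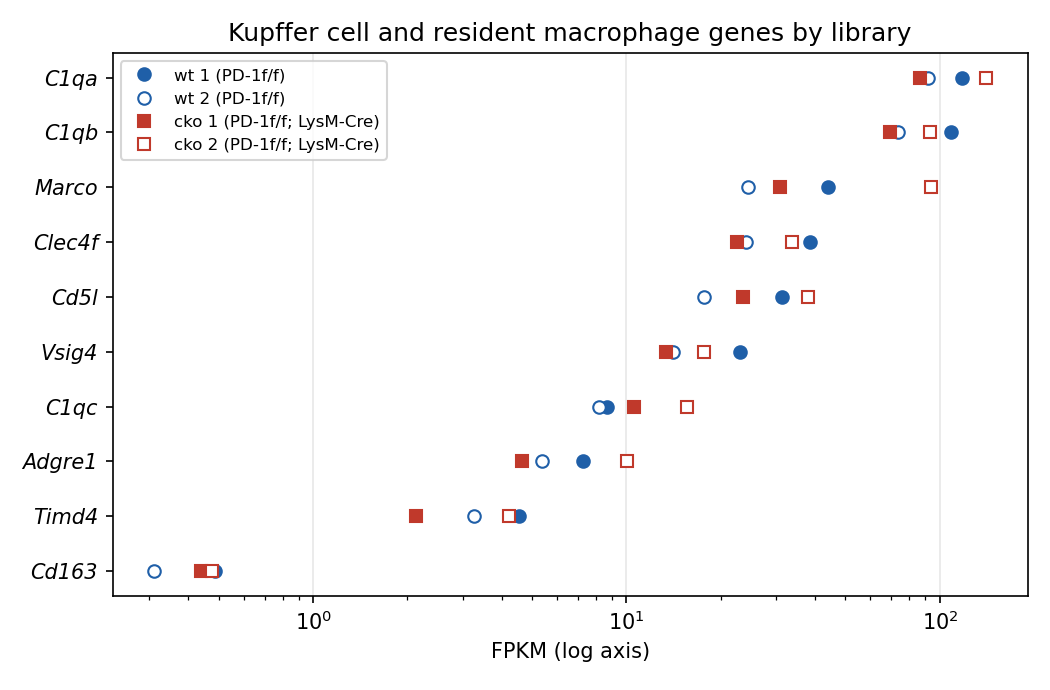
FPKM of the 10 genes in each library on a log axis, with circles for wt and squares for cko, filled for library 1 and open for library 2. The groups overlap for every gene but C1qc, and the levels run from below 0.5 FPKM for Cd163 to 140 FPKM for C1qa.

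The lectin gene Clec4f (chromosome 6, 83644542 to 83656187, minus strand, 7 exons in the longest coding transcript) lay below Marco, another surface receptor, in all 4 libraries. It measured 38.5 and 24.0 FPKM in wt 1 and wt 2 and 22.6 and 33.7 FPKM in cko 1 and cko 2. The highest library belonged to wt and the lowest to cko, but the groups overlapped, and the log2 fold change was -0.14 (SE 0.29, 95% interval -0.86 to 0.59, limma adjusted p = 0.843). The lectin rested on 1046 to 2113 reads per library. Vsig4 (chromosome X, 96247203 to 96293438, minus strand, 7 exons) measured 23.0 and 14.1 FPKM in wt and 13.3 and 17.7 FPKM in cko. The lowest library was cko 1, whereas cko 2 lay inside the wt range. Its log2 fold change was -0.22 (SE 0.27, 95% interval -0.90 to 0.46, limma adjusted p = 0.711). With each library left out, the value of this X-linked gene ran from -0.55 without wt 2, the library with Ddx3y, to 0.12 without wt 1. Clec4f, C1qb and Cd5l likewise had their lowest values without wt 2 (-0.47, -0.43 and -0.071). Marco, Timd4, Adgre1, C1qa and C1qc instead had theirs without cko 2. The part of sex in these values was not tested.

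Timd4 and Adgre1 lay lower. Timd4 (chromosome 11, 46810800 to 46844332, plus strand, 9 exons) measured 4.54 and 3.25 FPKM in wt and 2.14 and 4.21 FPKM in cko, on 87 to 219 reads. The lowest library was cko 1, and the other cko library lay inside the wt range (log2 fold change -0.26, SE 0.31, limma adjusted p = 0.690). The F4/80 gene Adgre1 (chromosome 17, 57358686 to 57483529, plus strand, 22 exons) measured 7.27 and 5.37 FPKM in wt and 4.64 and 10.03 FPKM in cko. Here the cko libraries enclosed the wt libraries on both sides, with a log2 fold change of 0.12 (SE 0.35, limma adjusted p = 0.890). Its 95% interval of -0.75 to 0.99 allows a change of some size in either direction.

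Among the SRCR genes, Marco spread most between libraries. Marco (chromosome 1, 120474538 to 120505024, minus strand, 17 exons) measured 44.0 and 24.3 FPKM in wt and 30.8 and 94.0 FPKM in cko. The highest library was cko 2, and cko 1 lay inside the wt range, so that the log2 fold change of 0.70 had an SE of 0.55 (95% interval -0.67 to 2.07, limma adjusted p = 0.544). Without cko 2 it was -0.08, and without cko 1 it was 1.49. Cd5l (chromosome 3, 87357881 to 87371073, plus strand, 6 exons) measured 31.5 and 17.7 FPKM in wt and 23.6 and 37.8 FPKM in cko, with overlapping groups (log2 fold change 0.33, SE 0.34, limma adjusted p = 0.654). Cd163 (chromosome 6, 124304656 to 124330527, plus strand, 17 exons) was the least abundant of the 10 genes in every library. It measured 0.486 and 0.311 FPKM in wt and 0.440 and 0.476 FPKM in cko, on 32 to 59 reads, and was not tested because its mean was under 1 FPKM. The files annotate 14 genes with the SRCR family, 3 of them Marco, Cd5l and Cd163. Of the other genes of the family, 3 were tested (Lgals3bp, Msr1 and Ssc4d) and 0 were called.

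The C1q chain genes lie side by side within 18675 bp on the minus strand of chromosome 4, each with 3 exons. C1qb (136880129 to 136886187) and C1qc (136889804 to 136893065) are 3616 bp apart, and C1qa (136895917 to 136898803) follows 2851 bp further on. C1qa was the most abundant of the 10 genes, with 118 and 91.8 FPKM in wt and 86.5 and 140 FPKM in cko. The cko libraries enclosed those of wt, and the log2 fold change was 0.08 (SE 0.27, 95% interval -0.58 to 0.74, limma adjusted p = 0.904). C1qb measured 109 and 73.7 FPKM in wt and 69.4 and 93.0 FPKM in cko, with overlapping groups (log2 fold change -0.16, SE 0.24, limma adjusted p = 0.778). C1qc measured 8.67 and 8.20 FPKM in wt and 10.6 and 15.6 FPKM in cko. It was the 1 gene of the 10 with both cko libraries above both wt libraries, a state that held for 33.6% of all genes tested, while the reverse held for 18%. Its log2 fold change was 0.55 (SE 0.22, 95% interval 0.01 to 1.10, limma adjusted p = 0.298), and it did not pass the adjusted test. It was 0.29 without cko 2 and 0.82 without cko 1.

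**Figure D2:**
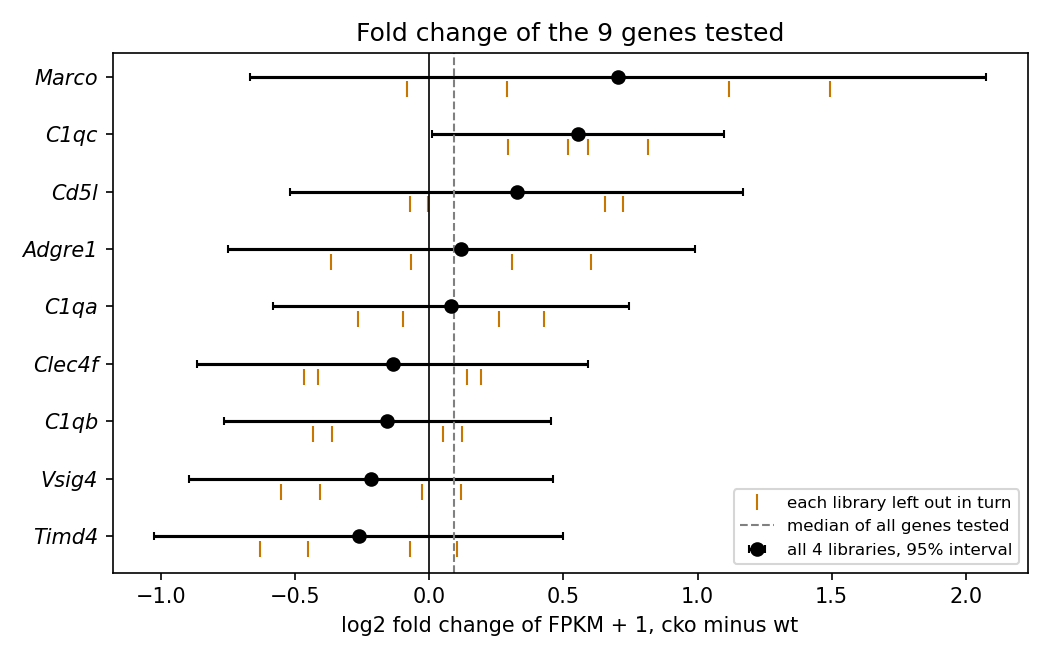
Log2 fold changes of FPKM + 1 (cko minus wt) for the 9 genes tested, as points with 95% intervals from limma, with ticks for the value when each library was left out and a dashed line at the median of all genes tested. The intervals of all but C1qc include 0, and those ticks lie on both sides of 0 for all but C1qc.

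The chains were not in equal amount per length. C1qb ran at 0.922 and 0.803 of the C1qa level in wt and at 0.802 and 0.663 in cko. C1qc ran at 0.0735 (95% counting interval 0.0658 to 0.0819) and 0.0893 (0.0787 to 0.101) of C1qa in wt, and at 0.122 (0.109 to 0.136) and 0.111 (0.101 to 0.122) in cko. The C1qc ratio was therefore higher in both cko libraries than in both wt libraries, and the counting intervals of wt 2 and cko 2 met at 0.101. The C1qb ratio was lower in both cko libraries, though wt 2 and cko 1 were about equal (0.803 and 0.802). Both ratios share C1qa as their denominator. No test between groups was made on these ratios. The exon length behind the C1qc values, 1931 bp, holds 728 bp outside its longest coding transcript of 1203 bp. Per base of that transcript C1qc ran at 0.118 to 0.196 of C1qa, and since 1 factor applies to all libraries their order stays the same.

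**Figure D3:**
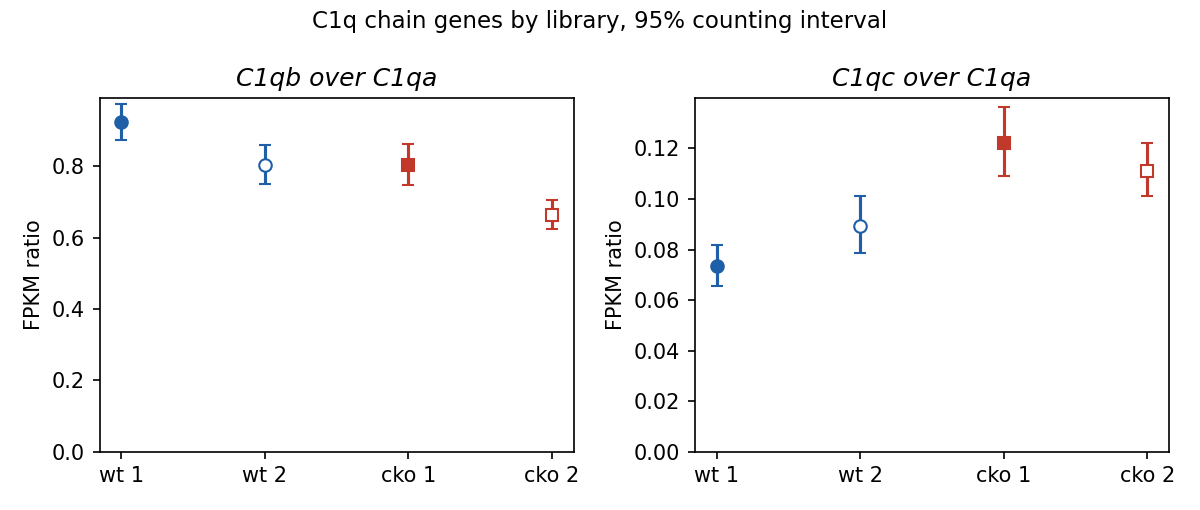
FPKM of C1qb and of C1qc over that of C1qa in each library, from 0 upward, with 95% Clopper-Pearson intervals for the error of counting alone. C1qc over C1qa is 0.0735 and 0.0893 in wt and 0.122 and 0.111 in cko, and C1qb over C1qa spans 0.663 to 0.922.

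The spread between libraries of 1 group was shared by these genes. In wt, library 1 was above library 2 for 10 of the 10 genes. In cko, library 2 was above library 1 for 10 of the 10. Both orders together held for 27.2% of all genes tested, and the pattern was noticed only after the values had been seen. After median-of-ratios scaling between libraries both orders again held for 10 of the 10 genes, beside 28.5% of genes tested. On reads scaled by library total, the wt 1 over wt 2 ratio ran from 1.06 for C1qc to 1.81 for Marco, with a median of 1.52 beside 0.972 for all genes tested. Its 95% counting interval was above 1 for 8 of the 10 genes and included 1 for C1qc (0.906 to 1.24) and Cd163 (0.999 to 2.48). The cko 2 over cko 1 ratio ran from 1.08 for Cd163 to 3.05 for Marco, with a median of 1.55 beside 1.01 for all genes tested, and its interval was above 1 for 9 of the 10 genes. For Marco that interval was 2.85 to 3.26, above the intervals of the other 9 genes, of which the highest bound was 2.59 for Timd4. The genes share the libraries, so that they are not 10 independent observations of this order.

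**Figure D4:**
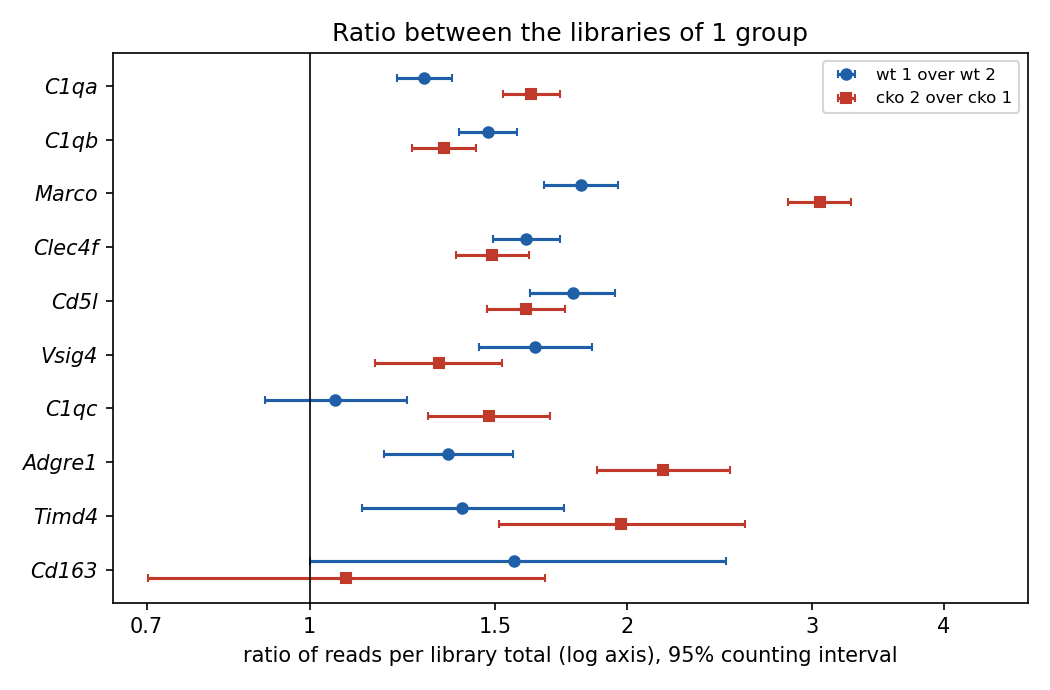
Ratio of reads, scaled by library total, between the libraries of 1 group for each gene, wt 1 over wt 2 (circles) and cko 2 over cko 1 (squares), on a log axis with 95% counting intervals. Every ratio lies to the right of 1, and Marco reaches 3.05 in cko.

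The direction between groups followed which library was left out. Without wt 1, 8 of the 9 genes tested were higher in cko, and their median log2 fold change was 0.26. Without cko 1, 8 of the 9 were higher with a median of 0.43. Without wt 2, 7 of the 9 were lower with a median of -0.10, and without cko 2, 8 of the 9 were lower with a median of -0.36. The count of calls at the unadjusted 0.01 threshold was 0 in each case.

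Other gene lists of macrophages were set beside these genes, without a test of any list. Over all genes tested, 1.88% were called higher and 0.408% lower at the unadjusted 0.01 threshold. An unadjusted p under 0.05 was passed higher by 11.4% and lower by 4.95%. Of 13 other Kupffer cell genes tested, 8 were higher and 5 lower, 2 were called at the unadjusted 0.01 threshold, and 10 had the order of libraries described above. The called genes were Cd38 and Hmox1, both higher in cko. Hmox1, the haem oxygenase that degrades haem, measured 84.3 and 68.7 FPKM in wt and 135 and 257 FPKM in cko (log2 fold change 1.28, SE 0.32, limma adjusted p = 0.214). Cd38, an ectoenzyme that degrades NAD, measured 18.6 and 13.4 FPKM in wt and 35.6 and 40.2 FPKM in cko (1.21, SE 0.20, limma adjusted p = 0.183). Both cko libraries were above both wt libraries for each gene, a state that held for 33.6% of all genes tested. Both genes lost the call with some libraries left out, and Hmox1 also with all libraries kept. With median-of-ratios scaling its log2 fold change was 1.17 (limma unadjusted p = 0.0121). Hmox1 likewise lost the call with no filter on low values, with eBayes without a trend and with a replicate block. Hmox1 lost it by the unadjusted p alone without wt 1 (log2 fold change 1.43) and without wt 2 (1.14), and by both criteria without cko 2 (0.82). Cd38 lost it by the fold without wt 2 (0.99) and by the unadjusted p without cko 2 (1.12). The iron exporter Slc40a1, by contrast, measured 32.4 and 31.7 FPKM in wt and 25.1 and 21.3 FPKM in cko (-0.46, SE 0.15, limma adjusted p = 0.257).

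Of 16 core macrophage genes tested, 15 were higher and 1 lower, 0 were called and 12 had the same order of libraries. At an unadjusted p under 0.05, 2 of the 16 passed higher, beside 11.4% of all genes tested. The median log2 fold change of the 16 was 0.27, and 10 were higher and 6 lower with median-of-ratios scaling. The receptor gene Csf1r measured 40.9 and 33.0 FPKM in wt and 45.6 and 113 FPKM in cko (0.95, SE 0.42, limma adjusted p = 0.334), which was 0.31 without cko 2 and 1.59 without cko 1. Its ligand gene Csf1 measured 2.92 and 2.23 FPKM in wt and 4.87 and 31.5 FPKM in cko (1.96, SE 0.76, limma adjusted p = 0.294), which was 0.72 without cko 2 and 3.19 without cko 1. For both, cko 2 stood far above the other 3 libraries, and the other ligand gene Il34 was at 0 in all but cko 1. The list of CSF1 receptor ligands and signalling genes had 7 of 9 higher and 0 called. Of these, 6 passed an unadjusted p under 0.05, beside 11.4% of all genes tested passing higher.

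The macrophage transcription factors were split, with 8 of 15 higher and 7 lower and 0 called. Nr1h3, which encodes LXR-alpha, measured 3.19 and 1.99 FPKM in wt and 3.25 and 4.76 FPKM in cko. Spic, needed for red pulp macrophages and induced by haem, measured 3.16 and 1.77 FPKM in wt and 1.17 and 3.002 FPKM in cko, and thus had the order of libraries of the Kupffer cell genes. Id3, a Kupffer cell inhibitor of basic helix-loop-helix factors, measured 23.6 and 22.3 FPKM in wt and 14.4 and 16.6 FPKM in cko. It was the 1 factor of the list that was lower at an unadjusted p under 0.05, with a log2 fold change of -0.54 (SE 0.15, limma adjusted p = 0.228). Spi1, which encodes PU.1, measured 77.3 and 126 FPKM in wt and 264 and 145 FPKM in cko, the opposite order within each group to the Kupffer cell genes.

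Genes that act with these receptors ran from under 1 FPKM to above 100 FPKM. Of 14 apoptotic cell clearance genes tested, 12 were higher, 2 lower and 1 called, or 9 higher and 5 lower with median-of-ratios scaling and with quantile normalization alike. Of 12 scavenger receptors, 10 were higher, 2 lower and 1 called. The called gene of both lists was Stab2, a hyaluronan receptor of liver sinusoidal endothelium, at 0.319 and 0.315 FPKM in wt and 3.61 and 4.76 FPKM in cko (log2 fold change 1.97, SE 0.24, limma adjusted p = 0.183). Those values rested on 62 and 52 reads against 592 and 738. Axl lay between 5.94 and 8.64 FPKM in all libraries, whereas Mertk and the bridging ligand Gas6 had means under 1 FPKM and were not tested. Among 17 complement genes tested, 9 were higher and 8 lower with 0 called, or 8 and 9 with median-of-ratios scaling. The split was 12 and 5 with erythroid and hepatocyte markers removed and library totals made equal. C3, whose fragments Vsig4 binds, measured 149 and 155 FPKM in wt and 180 and 159 FPKM in cko (log2 fold change 0.15, SE 0.14, limma adjusted p = 0.602). C1ra, a protease that binds C1q, measured 0.861 and 1.30 FPKM in wt and 1.70 and 2.50 FPKM in cko. Its partner C1s1 was at 0.576 FPKM or less and was not tested, and the C1 inhibitor gene Serping1 measured 1.65 and 1.81 FPKM against 0.551 and 1.34 FPKM.

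Markers of other cell types differed in level between these libraries. Of 11 erythroid markers tested, 10 were lower and 1 higher in cko, Epb42 and Hbb-bs were called, and the summed level was 3733 and 2349 FPKM in wt and 1431 and 1528 FPKM in cko. Hepatocyte markers had 7 of 8 lower with Apoa1 called, and summed to 88.8 and 149 FPKM against 62.5 and 76.0 FPKM. Neutrophil markers had 9 of 14 lower with Camp and S100a8 called, and their summed level was highest in wt 1. Monocyte markers had 9 of 11 higher with Vcan called, and summed to 1047 and 1225 FPKM in wt and 1662 and 1545 FPKM in cko. Genes of monocyte-derived inflammatory macrophages had 10 of 11 higher with Tnf called, and summed to 555 and 489 FPKM against 622 and 1188 FPKM. Endothelial and stromal markers had 7 of 11 lower with Stab2 called higher and Dcn called lower, and summed to 62.7 and 51.1 FPKM in wt and 46.8 and 54.4 FPKM in cko. Megakaryocyte markers, of which 3 were tested, summed to 29.4 and 16.5 FPKM in wt and 15.7 and 21.8 FPKM in cko. The erythroid, endothelial, megakaryocyte and inflammatory macrophage sums thus had the order of libraries of the Kupffer cell genes, whereas the hepatocyte, neutrophil and monocyte sums did not, and the part of cell composition in the spread of those genes was not tested. Of the 11 list genes called, Stab2 alone kept the call whichever library was left out. The count was 1 without cko 2, 5 without wt 1, 8 without wt 2 and 24 without cko 1. With quantile normalization, neutrophil markers were 8 higher and 6 lower. With erythroid and hepatocyte markers removed and library totals made equal they were 7 and 7, and endothelial and stromal markers 6 and 5. Dendritic cell markers had 2 genes tested and 0 called. No list gene that had values was at 0 in all 4 libraries, but some listed genes had none. Values were given for 33 of 38 complement genes and 15 of 16 scavenger receptors. They were given for 21 of 22 apoptotic cell clearance genes and 11 of 12 erythroid markers.

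**Figure D5:**
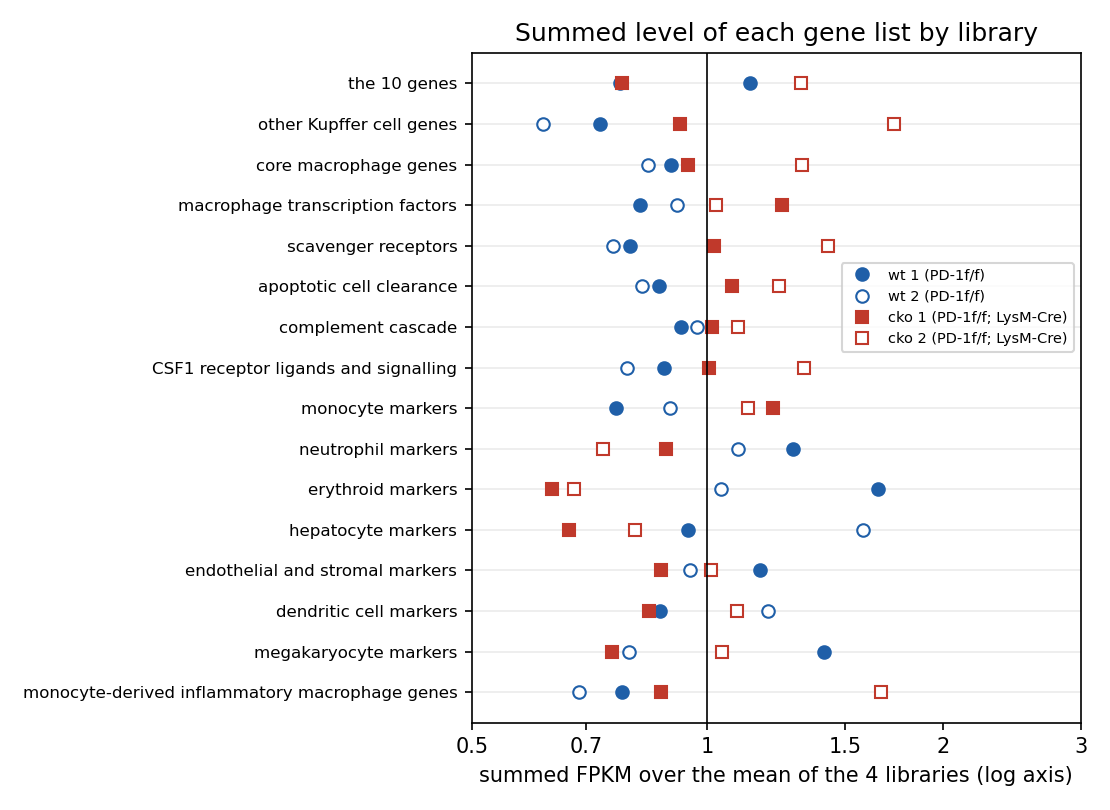
Summed FPKM of each gene list in each library, divided by its mean over the 4 libraries, on a log axis, with circles for wt and squares for cko (filled for library 1, open for library 2). The sum of the 10 genes is about equal in wt 2 and cko 1 (263 and 264 FPKM), whereas most other sums do not overlap between groups. The erythroid sums are lower in cko. Sums of other Kupffer cell genes are higher in cko (280.6 and 237.5 FPKM in wt, 355.5 and 667.1 FPKM in cko). Much of that gap lies in Hmox1 (84.3 and 68.7 against 135 and 257 FPKM) and Wfdc17 (54.5 and 37.0 against 79.0 and 226 FPKM). Of the 13 genes of that list tested, 8 were higher and 5 lower. Sums of core macrophage genes are also higher (728.4 and 680.4 FPKM in wt, 766.5 and 1071 FPKM in cko).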

How the data were processed

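RNA of 4 libraries, grouped by the genotype in their labels (wt and cko), was analysed. The authors deposited 1 FPKM value per gene and library, for 24706 genes. The submitters' notes name Bowtie2 2.2.3, TopHat2 2.0.12 and HTSeq 0.6.0 without their roles, and the mouse build mm9, although 92.61% of the gene positions were identical to those of GENCODE M21 (GRCm38). Positions are given as in the files. FPKM values were not scaled further. Since they were whole multiples of 1 read (within 0.02 reads) for 91.29% of genes at GENCODE M21 exon lengths, reads per gene were worked out. For Adgre1 the length was 3245 bp, the 1 length near the annotated one that gave whole reads. Ratios carry 95% Clopper-Pearson intervals, for the error of counting alone.

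Groups were compared with limma 3.58.1 in R 4.3.3 (lmFit, eBayes with a trend) on log2(FPKM + 1), which understates changes of low genes, for genes whose mean FPKM was 1 or more, with Benjamini-Hochberg adjustment over all 10779. The fit was tested on simulated data, in which the changed genes had larger fold changes than any fitted for the 10 genes. That test therefore does not show how changes of their size would be called. The 10 genes, the 15 other gene lists and the motifs were chosen with earlier results of these data known. Besides the 10 genes, those named are list genes past an unadjusted p of 0.01 with a log2 fold change above 1, genes that work with one of the 10, the 2 genes of highest mean FPKM of each list (printed only where a result turns on them), and Pdcd1 and Lyz2. Ddx3y, Xist, C3 and the tested genes of the SRCR family were named after their values were seen. Alternatives were other pseudocounts, filters, scalings, removed marker genes with library totals made equal, voom on reads, a replicate block and each library left out. Python 3.11.15 and matplotlib 3.10.9 made tables and figures.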

Additional observations from a re-analysis of the deposited data

How the results depend on the processing

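The count of called genes among the 10 was 0 under every alternative. At an unadjusted p under 0.05 with no fold minimum it was 1 as reported, 2 (Marco and C1qc) with the crossed replicate block and without cko replicate 1, and otherwise 0 or 1. Their median log2 fold change stayed within 0.49 (the spread between replicates) of the value reported, at -0.04 with median-of-ratios scaling, -0.06 with quantile normalization and 0.29 with erythroid and hepatocyte markers removed and totals made equal, a step that moved the median of all genes from 0.09 to 0.27. It ran from -0.36 to 0.43 with each library left out. Scaling also moved the split of calls over all genes from 203 higher and 44 lower. It was 142 and 71 with median-of-ratios factors and 148 and 73 with quantile normalization. With those markers removed and totals made equal it was 351 and 17. Before that step FPKM totals were 491983 and 457127 in wt and 412778 and 403900 in cko. Erythroid markers took at most 0.759% of all FPKM and hepatocyte markers at most 0.0325%. The removal and the equal totals were not tested apart. Of 133 values of single genes among the 10, 116 kept their direction and side of the threshold and 17 reversed, and of 315 values of other named genes, 4 reversed, 44 lost the call and 2 gained it. Alternatives that changed only the filter, the variance model or the block left every fold change as it was. Part of the 116 was thus fixed by the design. Reversed values were 0.069 for Clec4f and 0.054 for C1qb with those markers removed and totals made equal. Others were -0.037 (median-of-ratios) and -0.064 (quantile) for C1qa, and 0.19 for S100a8 with quantile normalization, which sets the most abundant genes to shared values. With libraries left out in turn, log2 fold changes ran from -0.47 to 0.19 for Clec4f, -0.55 to 0.12 for Vsig4, -0.071 to 0.72 for Cd5l, -0.084 to 1.49 for Marco, -0.63 to 0.10 for Timd4, -0.36 to 0.60 for Adgre1, -0.26 to 0.43 for C1qa, -0.43 to 0.12 for C1qb, 0.31 to 1.59 for Csf1r, 0.72 to 3.19 for Csf1, -0.65 to 0.24 for Spic and -0.079 to 0.39 for Axl. The 11 list genes called became 6 with no filter on low values, 7 with a mean of at least 5 FPKM and from 1 (without cko replicate 2) to 24 (without cko replicate 1) with a library left out, at 5 without wt replicate 1. The cause was not tested. With the replicate number as a block (replicate block) they were 9. The median of the 9 tested genes was 0.08, which this block could not change, since each replicate number occurs in both groups. The numbers do not pair animals by label, and the replicate differences of both groups correlated at -0.16 across genes, so a crossed pairing was added after seeing the data, which gave 18. The ratio of C1qc to C1qa had a mean of 0.0990 and 0.159 with the length of the longest coding transcript, also added after seeing the data. Cd163, at 32 to 59 reads, was too shallow for a test at the filter used.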
